A study of Mus musculus with 2 samples.

Results

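Genes of oxidative phosphorylation were followed through the cell classes of the mouse yolk sac at stage E8.75. The set was defined by name: every gene row whose symbol began with mt-, Nduf, Cox4 to Cox8, Uqcr or Atp5. This gave 105 of 30970 gene rows, 92 encoded in the nucleus and 13 encoded in mitochondrial DNA. The nuclear rows held 7 core subunits of complex I, 29 accessory subunits, 8 assembly factors, 8 rows of complex III, 19 of complex IV, 18 of the ATP synthase, Ndufa4l2 (a paralog of the complex IV subunit gene Ndufa4), and 2 rows with pseudogene names. Atp5o stood on 2 rows, of which 1 was listed at 0 in every class.

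Oxidative phosphorylation makes ATP from the electrons of NADH and succinate. Complex I takes electrons from NADH, complex III passes them to cytochrome c, complex IV passes them to oxygen, and all of these pump protons that drive the ATP synthase. Complexes I, III, IV and the ATP synthase are built from products of both genomes, so their assembly needs transcripts of both. The visceral endoderm of the yolk sac is an absorptive and secretory epithelium that feeds the embryo before the placenta works. Primitive erythroid cells of the yolk sac make haem, which is partly synthesized inside mitochondria, and keep their mitochondria at this stage.

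All cells had 1 genotype, Ttr-Cre/+; R26lsl-rtTA-EGFP/+, and no treatment. The Ttr promoter drives Cre, and Cre switches on rtTA and EGFP at the R26 locus. The study set out to compare the transcriptomes of ciliated cell types with those of the unciliated visceral endoderm lineage. Yolk sac cells were tagged with CellPlex oligonucleotides, pooled and sequenced on the 10x platform, and deposited as 3 tagged samples (labelled Ctrl1, Ctrl2 and Ctrl3, called tagged samples 1, 2 and 3 here).

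The tagged samples held 460, 651 and 706 cells and 22007477, 32890946 and 33114758 unique molecular identifiers (UMIs), the molecules counted. The design text names 3 embryos, but each tagged sample held cells of both sexes. By Xist, 181 of 443, 259 of 614 and 217 of 683 kept cells were called, and by Y-linked genes 150, 177 and 344. The number of embryos behind a tag is therefore not settled, and p-values below measure the spread between tagged samples.

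A minimum of 500 genes and a maximum of 10% mt- UMIs left 1740 cells. This limit acts on the mt- rows themselves and left out 35 cells with endoderm markers, 4 with mesoderm, 1 with endothelium and 14 with erythroid markers. Endoderm cells had at least 0.3% of their UMIs in Ttr, Apob and Apom, and erythroid cells at least 3% in 7 globin genes. Endothelium cells had at least 0.04% in Cdh5, Ctla2a and Plvap, and mesoderm cells at least 0.03% in Hand1, Vcan and Foxf1. The 50 cells in more than 1 class were dropped, 188 fell in none, and 1502 remained. Tagged samples 1, 2 and 3 gave 174, 215 and 170 endoderm cells, 60, 71 and 68 mesoderm cells, 36, 37 and 42 endothelium cells, and 81, 212 and 336 erythroid cells. UMIs in all were 32540566, 7128089, 4294641 and 31813300, so the endothelium sums were the thinnest.

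Markers that the class rules did not use matched the names, apart from the mesoderm marker Pdgfra. The 7 other endoderm markers summed to 17894 to 23725 CPM (UMIs per 1000000 UMIs of the class in a tagged sample) in endoderm and to at most 573 elsewhere. Of the erythroid markers, Alas2, the first enzyme of haem synthesis in erythroid cells, was at 153 to 204 CPM in erythroid cells and at most 17.6 elsewhere, and the erythroid transcription factor gene Klf1 at 145 to 151 and at most 14.7. The 4 other endothelium markers reached 701 to 804 in endothelium and at most 66.6 elsewhere, and the 4 other mesoderm markers 322 to 468 in mesoderm and at most 52.8 elsewhere. Among the latter, Pdgfra was not higher in mesoderm, at 20.9, 19.1 and 10.6 there and 29.2, 18.2 and 19.5 in endoderm. Genes of other cells were present too. A list of 7 trophoblast genes summed to 2292 to 2362 in mesoderm, nearly all of it the keratins Krt8 and Krt18, against 884 to 1276 in endoderm, 127 to 158 in endothelium and 40.1 to 48.4 in erythroid cells, while the placental genes Tpbpa and Prl3d1 were at 0 in mesoderm and at most 0.560 in any class. The trophoblast factor Elf5 was at 10.46, 5.84 and 2.12 in mesoderm and at most 0.594 elsewhere, and Tfap2c at 26.4, 8.56 and 5.09 in mesoderm and at most 7.72 elsewhere. The parietal endoderm list was highest in endothelium, at 1012 to 1262, mostly Sparc. The globin gene Hba-x was at 985 to 3370 CPM in the other 3 classes and at 39277 to 57231 in erythroid cells. The part of these genes in the differences below was not tested.

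Summed over all nuclear rows, endoderm was highest and erythroid cells came next. Endoderm gave 37877, 38769 and 39358 CPM in tagged samples 1, 2 and 3 (38668 ± 745, SD, n = 3). Erythroid cells gave 36476, 36112 and 36215 (36268 ± 188), below every endoderm value. Mesoderm gave 27850, 28335 and 27463 (27883 ± 437), and endothelium gave 26848, 29237 and 29711 (28599 ± 1535). Mesoderm and endothelium values overlapped, and both classes lay below all endoderm and erythroid values. Globin transcripts take part of the erythroid total. With globin rows out of the total, erythroid cells stood at 39338 ± 353 and endoderm at 38772 ± 744, so the order of these classes rests on the denominator.

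The mt- sum had another order. Endoderm gave 25825, 22804 and 25227 CPM (24619 ± 1600), and mesoderm 18511, 18051 and 15958 (17507 ± 1361). Endothelium gave 14002, 12636 and 11828 (12822 ± 1099), and erythroid cells 12700, 13811 and 12325 (12946 ± 773). Endoderm lay above mesoderm in all tagged samples and mesoderm above both remaining classes, whose values overlapped. Without globin in the total, the erythroid mt- sum was 14046 ± 965, still within reach of endothelium at 12861 ± 1093.

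Erythroid cells thus combined a nuclear sum near that of endoderm with an mt- sum near that of endothelium. Per nuclear UMI, mt- UMIs stood at 0.682, 0.588 and 0.641 in endoderm, and at 0.665, 0.637 and 0.581 in mesoderm. Endothelium gave 0.522, 0.432 and 0.398, and erythroid cells 0.348, 0.382 and 0.340. The ratio does not depend on the globin share or any other denominator. Endoderm and mesoderm overlapped in it, and erythroid cells lay below every other class in all tagged samples.

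**Figure D1:**
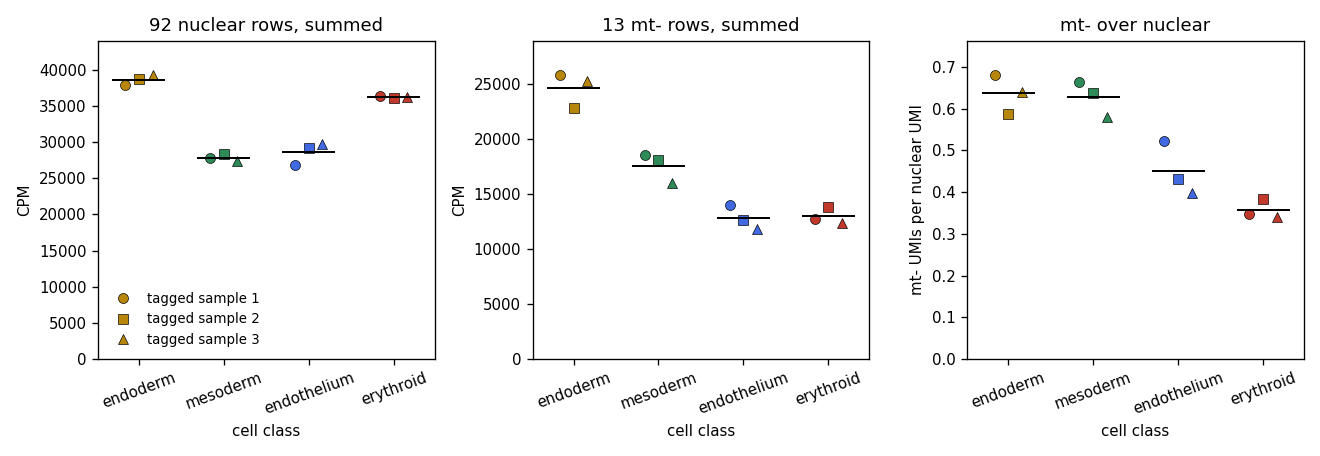
Summed CPM of the 92 nuclear rows (left) and the 13 mt- rows (middle), and mt- UMIs per nuclear UMI (right), for 4 cell classes on the x axis; each symbol is 1 tagged sample and each line the mean of 3. Erythroid cells stand near endoderm on the left at 36268 CPM and lowest on the right, at 0.340 to 0.382.

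Each complex followed the nuclear order with some differences. Mean sums of the ATP synthase rows were 11378 CPM in endoderm, 8806 in mesoderm, 9259 in endothelium and 11142 in erythroid cells. Complex IV rows gave 11914, 8047, 8478 and 11277 in the same order of classes, and complex I accessory subunits 8939.5, 6912, 6707 and 8244. Relative to endoderm, complex III was lowest of these groups in mesoderm, with 4549 in endoderm against 2733 in mesoderm, 2830.1 in endothelium and 3793 in erythroid cells. Complex I assembly factors were highest in erythroid cells, at 495 CPM against 416 in endoderm, 366 in mesoderm and 330.05 in endothelium. The 2 rows with pseudogene names were also highest there, at 235 CPM against 212 in endoderm. Of the 89 nuclear rows with any UMI, 54 had their highest mean in endoderm, 28 in erythroid cells, 4 in mesoderm and 3 in endothelium.

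Classes were then compared gene by gene on the summed counts with edgeR's quasi-likelihood test, Benjamini-Hochberg adjustment over all genes tested and a threshold of 0.05. Differences are log2 differences after scaling by the trimmed mean of M-values (TMM), which centres most genes near 0, given with their standard error. Scaling by library size alone moved the median of all genes from near 0 to 0.22 for mesoderm against endoderm and 0.08 for endothelium against endoderm. It moved it to -0.27 for erythroid cells against endoderm, -0.13 for endothelium against mesoderm, and -0.45 and -0.28 for erythroid cells against mesoderm and endothelium. The levels in CPM are on the library-size scale, so a level and a TMM-scaled difference can point different ways where they are small. Classes share tagged samples, and each class enters 3 comparisons.

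Nearly the whole set was lower in mesoderm than in endoderm. Of 86 nuclear rows tested, 81 were lower and 3 higher, with a median log2 difference of -0.67, and 12 of 13 mt- rows were lower, with a median of -0.71. Over all 11011 genes tested the median was -0.02, with 30.6% called higher and 33.2% called lower. All 7 complex I core rows, 29 of 29 accessory rows, 8 of 8 complex III rows and 17 of 17 ATP synthase rows tested were lower, as were 13 of 15 complex IV rows. The assembly factors were mixed, with 5 of 8 lower and Ndufaf2 higher.

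Uqcrq, a small subunit of complex III, fell most among the subunits at high levels. It was at 974, 1085 and 1113 CPM in endoderm and at 446, 431 and 431 in mesoderm, a log2 difference of -1.52 ± 0.08 (edgeR adjusted p = 3.2e-08). Cox5a, a subunit of complex IV and chosen after its values were seen, had means of 1431 and 679.6 CPM and a difference of -1.32 ± 0.09. Ndufs7, the core subunit that carries an iron-sulfur cluster next to the ubiquinone site, went from 364, 375 and 396 to 215, 200 and 191 CPM, a difference of -1.15 ± 0.09 (edgeR adjusted p = 4.1e-07). None of these had overlapping values between the classes.

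The complex I assembly factors moved apart from each other in mesoderm. Ndufaf6 was at 86.9, 83.4 and 92.7 CPM in endoderm and at 30.9, 41.2 and 38.6 in mesoderm, a log2 difference of -1.48 ± 0.11 (edgeR adjusted p = 5.5e-07). Ndufaf2 was at 48.2, 50.8 and 53.8 in endoderm and at 83.2, 77.8 and 89.0 in mesoderm, a difference of 0.47 ± 0.10 (edgeR adjusted p = 0.0016). Values of neither gene overlapped. Atp5g2, which encodes a copy of the ATP synthase c subunit, had nearly the same level in both classes, at 724, 715 and 718 CPM in endoderm and 726, 760.5 and 667 in mesoderm. It was called lower on the TMM scale at -0.24 ± 0.07, and the call was lost without tagged sample 2 (-0.27), without tagged sample 3 (-0.18) and under library size alone (-0.00030).

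Endothelium showed a like pattern against endoderm, with a larger gap in the mt- rows. Of 85 nuclear rows tested, 72 were lower and Ndufa8 alone was higher, with a median log2 difference of -0.55. Of the 13 mt- rows, 12 were lower, with a median of -1.06. Over all 10694 genes the median was -0.05, with 28.6% higher and 31.9% lower. The lower rows were 7 of 7 complex I core, 23 of 29 accessory, 4 of 8 assembly, 8 of 8 complex III, 13 of 14 complex IV and 16 of 17 ATP synthase rows. Ndufs7 stood at 154, 173 and 173 CPM in endothelium, a difference from endoderm of -1.31 ± 0.09 (edgeR adjusted p = 4.6e-08). Ndufaf6 stood at 27.9, 27.9 and 36.8, a difference of -1.64 ± 0.14 (edgeR adjusted p = 3.4e-07).

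Ndufa8 encodes an accessory subunit of complex I that sits on the side of the space between the membranes. It was at 211, 228 and 207 CPM in endoderm, 140.1, 153 and 143 in mesoderm, 310.45, 276 and 329.6 in endothelium and 213, 199 and 192 in erythroid cells. Every endothelium value was above every value of the other classes. The log2 difference was 0.38 ± 0.10 against endoderm (edgeR adjusted p = 0.0041) and 1.19 ± 0.10 against mesoderm (adjusted p = 1.1e-06). Erythroid cells were lower than endothelium, at -0.30 ± 0.08 (edgeR adjusted p = 0.0065). Without tagged sample 3 the calls against endoderm (0.29) and for erythroid cells against endothelium (-0.22) were lost, while the one against mesoderm held.

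Endothelium and mesoderm differed less. Called mt- rows were all lower in endothelium, and called nuclear rows were mostly higher, at a share near the background. Of 85 nuclear rows 20 were higher and 1 lower in endothelium, with a median log2 difference of 0.14. Of 13 mt- rows 8 were lower, with a median of -0.38. The background was 19.5% higher and 15.9% lower of 9103 genes, with a median of -0.01, so the nuclear share called higher was close to it. The split also rests on scaling and on single tagged samples. With library size alone the share of calls that were higher went from 69.0% to 20%, with 4 nuclear rows higher and 7 lower. Without tagged sample 2 there were 8 calls in all, without tagged sample 3 also 8, and without tagged sample 1 there were 41, against 29 with all 3.

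Besides Ndufa8, the called nuclear rows with the largest differences in endothelium against mesoderm were Ndufa9 and Ndufb5, both accessory subunits of complex I, and Ndufv3 in the other direction. Ndufb5 was at 276, 283 and 287 CPM in mesoderm and at 305, 369 and 330.4 in endothelium, a log2 difference of 0.37 ± 0.09 (edgeR adjusted p = 0.0055) that was lost without tagged sample 2 (0.31) or 3 (0.37). Ndufa9 differed by 0.50 ± 0.14 with overlapping levels, and lost its call without tagged sample 3 (0.39). Ndufv3, the small subunit of the NADH-oxidizing module, was at 229, 249 and 219 in mesoderm and at 131, 145 and 176 in endothelium, a difference of -0.51 ± 0.12 (edgeR adjusted p = 0.0047) that was lost without tagged sample 2 (-0.42). The values of Ndufb5 and Ndufv3 did not overlap.

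Erythroid cells were far above mesoderm and endothelium in the nuclear rows. Against mesoderm, 80 of 85 nuclear rows were higher and 2 lower, with a median log2 difference of 0.77, where all 9742 genes had 33.2% higher, 37.6% lower and a median of -0.03. Against endothelium, 74 of 84 were higher and 2 lower, with a median of 0.68, where all 9256 genes had 31.9% higher, 34.2% lower and a median of 0.03. The mt- rows split, with 4 higher and 2 lower against mesoderm (median 0.10) and 11 higher and 1 lower against endothelium (median 0.46). Under library size alone, calls against mesoderm that were higher went from 95.5% to 79.7% of all member calls. The nuclear median stayed above 0 there, at 0.35 against mesoderm and 0.37 against endothelium, while the mt- medians went to -0.31 and 0.15. On that scale 1 mt- row was higher and 9 were lower than in mesoderm, so the mt- direction against mesoderm depends on scaling. Against endothelium 3 mt- rows were higher and 1 lower on that scale, and mt-Nd1 (-0.068) and mt-Nd4 (-0.072) turned. The count of mt- rows called higher than in endothelium therefore depends on scaling as well.

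The rows that rose in erythroid cells against mesoderm came from every complex. They were 6 of 7 complex I core rows, 27 of 29 accessory, 8 of 8 assembly, 8 of 8 complex III, 13 of 14 complex IV and 16 of 17 ATP synthase rows. Against endothelium the counts were 6, 25, 6, 8, 12 of 13 and 16. Atp5l, which encodes subunit g of the membrane part of the ATP synthase, was at 388, 396 and 397 CPM in mesoderm, 381, 465 and 482 in endothelium, 519.7, 511 and 517 in endoderm and 732, 748 and 730.4 in erythroid cells. Erythroid values lay above all others, with log2 differences of 1.32 ± 0.05 against mesoderm (edgeR adjusted p = 1.5e-09), 1.05 ± 0.08 against endothelium (adjusted p = 2.3e-07) and 0.73 ± 0.05 against endoderm (adjusted p = 6.1e-08).

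Not every nuclear row followed. Ndufb11, an X-linked accessory subunit of complex I, was at 245, 238 and 231 CPM in erythroid cells, below the 349, 368 and 360.4 of mesoderm and the 416, 418 and 439.8 of endoderm. The TMM-scaled difference was -0.62 ± 0.06 against endoderm (edgeR adjusted p = 7.6e-07) and -0.18 ± 0.06 against mesoderm (adjusted p = 0.011), and the latter call was lost when any of tagged samples 1, 2 or 3 was left out (-0.12, -0.14 and -0.17).

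Against endoderm, erythroid cells showed the 2 genomes moving apart. Of 85 nuclear rows 36 were higher and 14 lower, with a median log2 difference of 0.12. Of 13 mt- rows 10 were lower and only mt-Nd3 was higher, with a median of -0.71. All 11055 genes had 36.1% higher, 41.8% lower and a median of -0.05, so the share of nuclear rows called higher was near the background and the share called lower was under it. Under library size alone 13 nuclear rows were higher and 35 lower, the nuclear median was -0.10 and the mt- median -0.92, and the share of member calls that were higher went from 60.7% to 22.0%. The direction of small nuclear differences between these classes therefore depends on scaling, while 11 mt- rows were lower under library size alone. Higher and lower rows were 4 and 3 of 7 core, 11 and 4 of 29 accessory, 4 and 2 of 8 assembly, 1 and 1 of 8 complex III, 8 and 3 of 14 complex IV and 7 and 1 of 17 ATP synthase rows.

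Complex I assembly factors were among the rows that differed between erythroid cells and endoderm. Ndufaf4, an early assembly factor of complex I, was at 114, 89.0 and 87.9 CPM in endoderm and at 187, 183 and 170 in erythroid cells, a log2 difference of 1.11 ± 0.09 (edgeR adjusted p = 2.6e-07). Ndufaf2, which acts late in the same pathway, was at 100.1, 106 and 99.7 in erythroid cells, a difference from endoderm of 1.21 ± 0.08 (edgeR adjusted p = 4e-08). Ndufaf6 went the other way at 44.5, 40.3 and 39.9, a difference of -0.87 ± 0.08 (edgeR adjusted p = 5.7e-07). None of these 3 genes had overlapping values, and all kept their direction under library size alone.

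**Figure D2:**
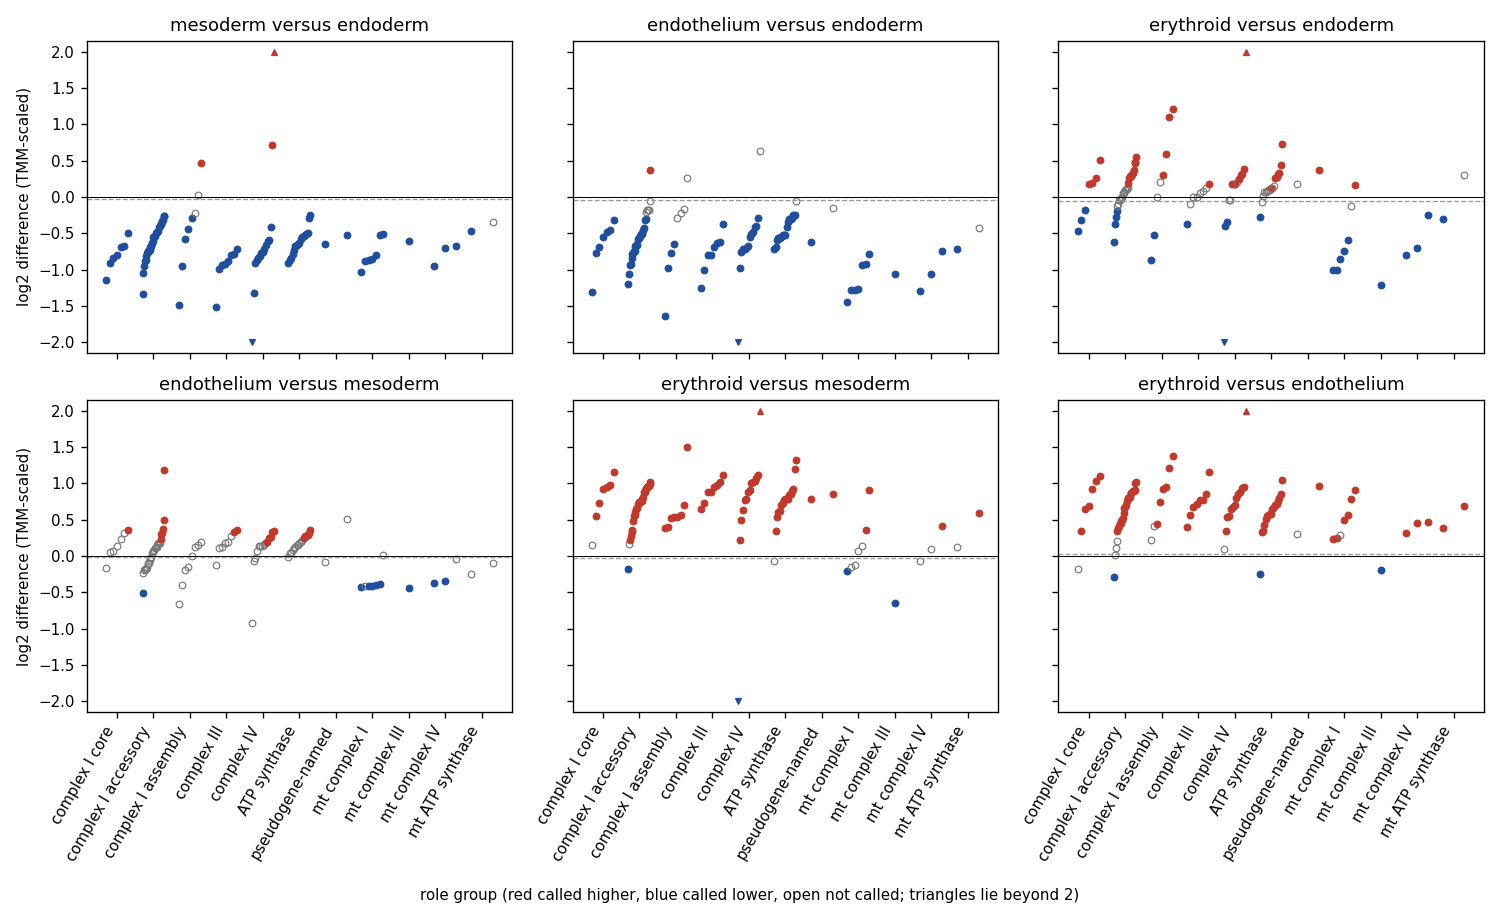
TMM-scaled log2 difference (y axis) of each member tested, by role group (x axis), in the 6 class comparisons; red was called higher, blue lower, open circles were not called, triangles lie beyond 2 in either direction, and the dashed line is the median of all genes. Mesoderm and endothelium lie below endoderm across the groups. In erythroid cells against endoderm the median was 0.12 over nuclear rows and -0.71 over mt- rows, with the mt- ATP synthase rows at -0.30 and 0.30.

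Tissue forms of subunits with a second gene copy had the largest log2 differences of the set, at low levels. Cox7a1 and Cox4i2 entered only fits with the class where each was highest, so they could hardly be called in the other direction there. Complex IV holds several subunits with a widely expressed and a tissue-specific gene, such as Cox7a2 and Cox7a1 (a heart and muscle form), Cox6b1 and Cox6b2 (a testis form) and Cox4i1 and Cox4i2 (a lung form that responds to oxygen). The promoter sequences of the pairs Cox7a2 and Cox7a1, and Cox6b1 and Cox6b2, are shown because the members of each pair had different class patterns. Those of Ndufa8 and Uqcr11 are shown because they hold motifs of factors known to control respiratory genes. Sequences are from RefSeq on GRCm38.p6. They run from 250 bases before to 50 bases after the start used for the promoter, 5′ to 3′ on the gene's strand. That start can differ from the GENCODE M21 gene positions given below, as it does for Cox7a1. Capitals mark a match to the NRF1 core CGCATGCG or the GABP/ETS core CCGGAAGT.
Cox7a1 (chr7:30183921-30184220, plus strand): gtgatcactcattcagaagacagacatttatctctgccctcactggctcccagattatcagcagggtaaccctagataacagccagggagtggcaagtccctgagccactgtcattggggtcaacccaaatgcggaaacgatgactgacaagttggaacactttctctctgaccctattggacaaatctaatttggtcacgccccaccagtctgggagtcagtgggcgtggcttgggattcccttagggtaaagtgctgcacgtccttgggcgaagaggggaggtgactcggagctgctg
Cox7a2 (chr9:79759804-79760103, minus strand): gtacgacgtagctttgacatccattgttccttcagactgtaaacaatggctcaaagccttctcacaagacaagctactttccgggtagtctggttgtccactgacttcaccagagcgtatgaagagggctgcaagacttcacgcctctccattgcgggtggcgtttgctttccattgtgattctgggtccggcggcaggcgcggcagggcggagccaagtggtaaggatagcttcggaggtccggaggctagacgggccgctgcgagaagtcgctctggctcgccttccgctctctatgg
Cox6b1 (chr7:30626065-30626364, minus strand): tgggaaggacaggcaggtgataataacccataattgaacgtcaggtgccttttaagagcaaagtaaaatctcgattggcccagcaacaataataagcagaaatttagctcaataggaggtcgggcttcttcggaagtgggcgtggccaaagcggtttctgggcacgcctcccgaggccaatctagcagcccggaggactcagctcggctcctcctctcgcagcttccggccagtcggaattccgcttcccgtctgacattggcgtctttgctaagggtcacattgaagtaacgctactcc
Cox6b2 (chr7:4753045-4753344, minus strand): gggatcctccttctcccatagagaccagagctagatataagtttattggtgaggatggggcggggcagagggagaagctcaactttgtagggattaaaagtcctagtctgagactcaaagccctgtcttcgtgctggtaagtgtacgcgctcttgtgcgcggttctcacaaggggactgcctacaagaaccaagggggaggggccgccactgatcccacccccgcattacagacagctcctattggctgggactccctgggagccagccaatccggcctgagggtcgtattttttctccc
Ndufa8 (chr2:36049289-36049588, minus strand): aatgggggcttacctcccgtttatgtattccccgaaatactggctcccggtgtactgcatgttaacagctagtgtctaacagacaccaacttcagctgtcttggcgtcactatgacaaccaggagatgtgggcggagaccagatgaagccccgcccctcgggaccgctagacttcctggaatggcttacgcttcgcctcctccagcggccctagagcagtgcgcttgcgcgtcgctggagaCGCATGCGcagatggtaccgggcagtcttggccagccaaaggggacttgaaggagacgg
Uqcr11 (chr10:80406772-80407071, minus strand): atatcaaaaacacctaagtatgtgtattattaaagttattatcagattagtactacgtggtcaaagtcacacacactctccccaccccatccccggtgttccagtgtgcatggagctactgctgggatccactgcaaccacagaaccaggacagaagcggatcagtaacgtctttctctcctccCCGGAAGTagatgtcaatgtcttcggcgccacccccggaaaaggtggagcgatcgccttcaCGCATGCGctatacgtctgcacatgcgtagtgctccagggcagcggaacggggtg

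Of 92 nuclear rows, 75 matched a RefSeq promoter, which were 74 genes. On either strand the NRF1 core was in a promoter of 11 of 74 genes (14.9%) against 2.07% of all 27025 genes in the table. The YY1 core AAGATGGC was in 11 (14.9%) against 3.19%, the GABP/ETS core in 5 (6.76%) against 4.31%, and the ERR element TCAAGGTCA in 1 (1.35%), Atp5g3, against 0.466%. NRF1 is a factor long known from respiratory gene promoters, and YY1, GABP and ERR are further regulators of these genes. Genes with the NRF1 core were Atp5g2, Atp5j, Atp5k, Atp5l, Ndufa11, Ndufa8, Ndufaf4, Ndufaf5, Uqcr11, Uqcrc1 and Cox6a1. They include members with different class patterns, such as Ndufa8 (highest in endothelium), Atp5l and Ndufaf4 (highest in erythroid cells) and Uqcr11. A match is a description of these letters in this window.

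Cox7a1 (GRCm38 chr7:30184144-30186078, plus strand) was found mostly in endoderm. It was at 30.2, 28.7 and 28.0 CPM there, at 3.64, 3.50 and 1.70 in mesoderm, 2.37, 2.94 and 4.80 in endothelium and 2.08, 0.747 and 1.37 in erythroid cells. These levels rest on 941, 21, 14 and 40 UMIs in all. Endoderm values lay above all others, with log2 differences of -3.53 ± 0.22 in mesoderm, -3.26 ± 0.25 in endothelium and -4.29 ± 0.20 in erythroid cells (edgeR adjusted p = 1.1e-07, 1.4e-07 and 2.4e-09). The gene passed the low-count filter only in comparisons with endoderm, so it could hardly be called in the other direction. Its partner Cox7a2 followed the rest of complex IV, at 1009, 1023 and 962 in endoderm, 715, 661 and 698 in mesoderm, 673, 668 and 650.4 in endothelium and 970.1, 968 and 975 in erythroid cells.

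Cox6b2 (GRCm38 chr7:4751792-4753094, minus strand) was highest in erythroid cells. It was at 25.7, 45.1 and 42.3 CPM in erythroid cells, 5.82, 5.20 and 6.43 in endoderm, 9.55, 10.9 and 13.1 in mesoderm and 6.53, 17.6 and 5.60 in endothelium. Erythroid values overlapped with no other class, with log2 differences of 2.97 ± 0.20 against endoderm, 2.21 ± 0.24 against mesoderm and 2.31 ± 0.35 against endothelium (edgeR adjusted p = 7.6e-08, 6.8e-06 and 9e-05). Mesoderm was also above endoderm, by 0.71 ± 0.20 (edgeR adjusted p = 0.0095), a call lost without tagged sample 2 (0.67) or 3 (0.67). Cox6b1 showed no such pattern, at 836, 843 and 769.9 in endoderm, 579.9, 641 and 613 in mesoderm, 636, 663 and 729.6 in endothelium and 763, 814 and 802 in erythroid cells.

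Cox4i2 (GRCm38 chr2:152754173-152765037, plus strand) gave 132 UMIs in all and was found in mesoderm and endothelium. It was at 11.8, 14.4 and 12.3 CPM in mesoderm and at 10.1, 1.47 and 6.40 in endothelium. Endoderm had 9 UMIs (0.336, 0.277 and 0.218 CPM) and erythroid cells 4 (0.232, 0.0934 and 0.119 CPM). The log2 difference was 5.20 ± 0.32 for mesoderm against endoderm (edgeR adjusted p = 9.9e-08) and -6.06 ± 0.37 for erythroid cells against mesoderm (adjusted p = 4.5e-08), in fits that it entered only through mesoderm. Mesoderm and endothelium values did not overlap, and their difference of -0.92 ± 0.41 was not called (edgeR adjusted p = 0.11). Without tagged sample 1 it was called at -1.67, without tagged sample 2 it was -0.38 and not called, and with no low-count filter it was called at -0.93. Cox4i1 was the row with far more UMIs in every class, at 1438, 1510.1 and 1521 CPM in endoderm, 1013, 983 and 884 in mesoderm, 1004, 1143 and 1176 in endothelium and 1463, 1467 and 1436 in erythroid cells. It was called higher in erythroid cells than in endoderm on the TMM scale (0.18 ± 0.05), although this turned to -0.034 under library size alone.

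The remaining tissue-form rows were nearly empty. Cox8b and Cox8c, the muscle and testis forms of subunit VIII, had 0 UMIs, which allows up to 0.0922 CPM in endoderm, 0.421 in mesoderm, 0.699 in endothelium and 0.0943 in erythroid cells (3 UMIs of the class total, counting error only). Cox6a2 had 2 UMIs and Cox7b2 had 6, all of the latter in endoderm. Ndufa4l2, a hypoxia-inducible paralog of Ndufa4, had 56 UMIs and was not tested. Its mesoderm levels of 5.003, 1.56 and 0.848 CPM lay above those of endoderm (0.560, 0.762 and 0.654) and erythroid cells (0.232, 0.467 and 0.417), and overlapped those of endothelium (0.594, 2.21 and 0). These 5 rows and the empty Atp5o row entered no comparison.

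The c subunit of the ATP synthase has 3 genes that give the same mature protein, and they did not move together. Atp5g1 was at 1252, 1096 and 1205 CPM in endoderm, 812, 699 and 728 in mesoderm, 895, 827 and 922 in endothelium and 1522, 1114 and 1244 in erythroid cells. Atp5g2 was at 747, 721 and 785 in endothelium, close to the endoderm and mesoderm values above, and at 518, 500.5 and 519.9 in erythroid cells, below every value of the other classes. Erythroid cells were lower in Atp5g2, at -0.28 ± 0.05 against endoderm (edgeR adjusted p = 0.00021) and -0.24 ± 0.06 against endothelium (adjusted p = 0.0039). Against mesoderm Atp5g2 was not called on the TMM scale, and it was called at -0.49 under library size alone. Atp5g1 was higher in erythroid cells by 1.199 ± 0.10 against mesoderm and 0.85 ± 0.09 against endothelium. Atp5g3 had means of 557, 466, 424 and 510.3 CPM in endoderm, mesoderm, endothelium and erythroid cells. How reads from near-identical copies and pseudogenes of such genes were shared out is not stated in the labels or file headers, so these levels are uncertain to that extent.

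**Figure D3:**
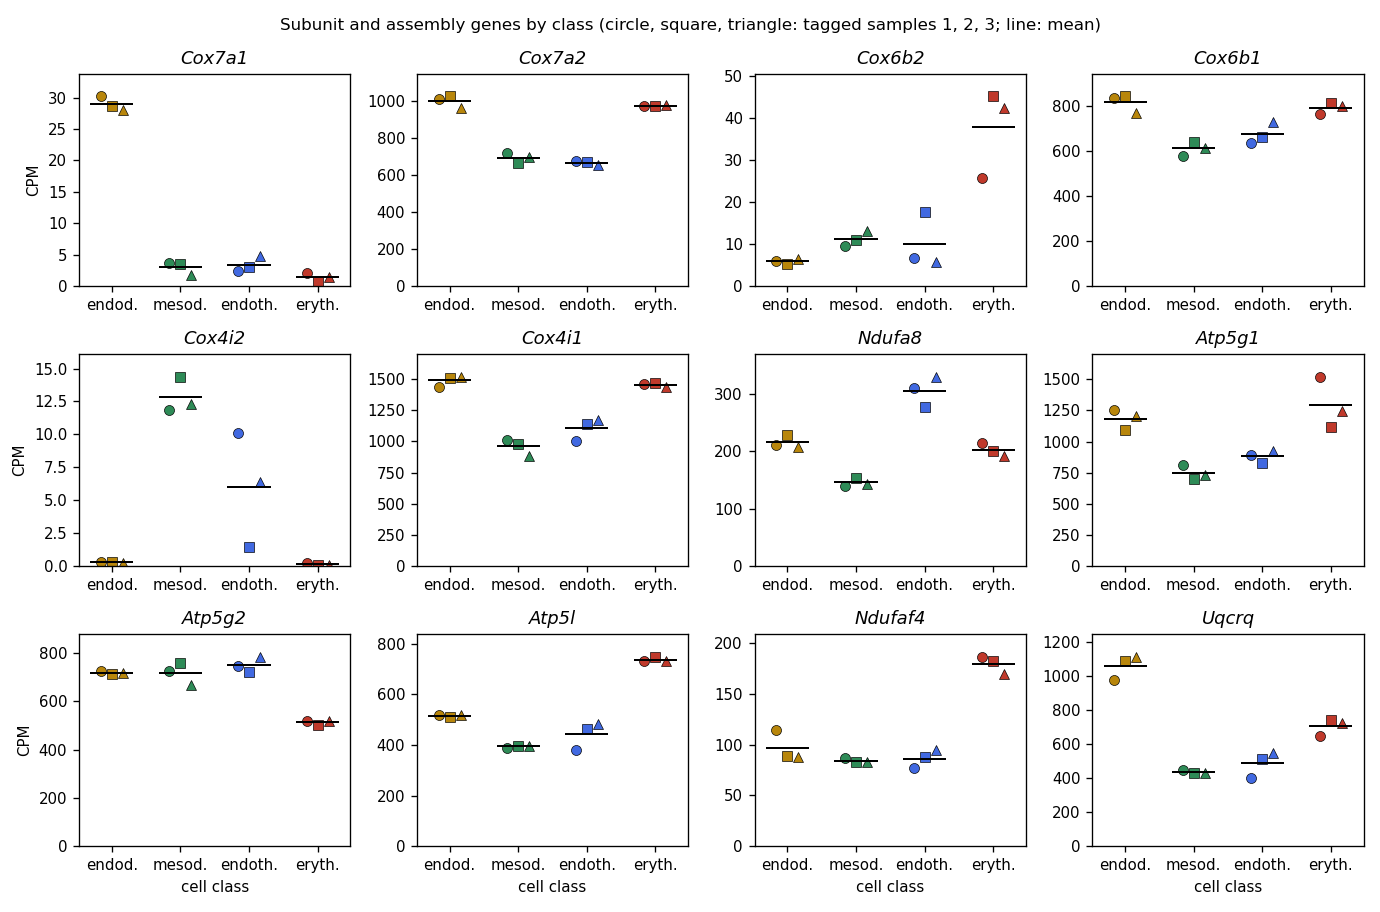
CPM (y axis, each panel with its own scale from 0) of 12 members in the 4 cell classes (x axis); symbols are tagged samples 1, 2 and 3 and lines are means. Cox7a1 stands out in endoderm at 28.0 to 30.2, Cox6b2 in erythroid cells at 25.7 to 45.1, Ndufa8 in endothelium at 276 to 329.6, and Atp5g2 is lowest in erythroid cells at 500.5 to 519.9.

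Mitochondrial DNA encodes 7 subunits of complex I, 1 of complex III, 3 of complex IV and 2 of the ATP synthase. The genes are transcribed as long precursors and some share bases, so that a read from a shared stretch belongs to both. The shared stretches are shown because they lie in the rows of mt-Atp8, mt-Atp6, mt-Co3, mt-Nd4l and mt-Nd4. Their effect on the levels of these rows was not tested. They were taken from GRCm38 with GENCODE M21 gene positions, with 20 bases on each side and the shared bases in capitals.
mt-Atp8 and mt-Atp6 (chrM:7927-7969): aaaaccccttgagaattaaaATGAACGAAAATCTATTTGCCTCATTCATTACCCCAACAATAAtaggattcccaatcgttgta
mt-Atp6 and mt-Co3 (chrM:8607-8607): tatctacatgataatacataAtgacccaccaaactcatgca
mt-Nd4l and mt-Nd4 (chrM:10167-10173): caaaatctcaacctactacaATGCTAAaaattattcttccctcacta

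The first stretch holds 43 shared bases, the second 1 and the third 7. Of the 13 rows, 12 had their highest mean in endoderm, and 10 had their lowest in endothelium and 3 in erythroid cells. By complex, the mt- complex I rows summed to 7740.3 CPM in endoderm, 5070 in mesoderm, 3548 in endothelium and 3738 in erythroid cells. The mt- complex IV rows gave 9690.4, 6616, 5052 and 5445, and mt-Cytb, the only row of complex III, 3907, 3029.9 and 2048 with 1451 in erythroid cells. The mt- ATP synthase rows varied least, at 3281, 2791, 2174 and 2312.

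Erythroid cells stood lowest in mt-Cytb, which encodes cytochrome b, the core of complex III. It was at 3465, 3803 and 4454 CPM in endoderm, 2944, 3198 and 2947 in mesoderm, 2049.7, 2135 and 1958 in endothelium and 1381, 1583 and 1389.6 in erythroid cells. The classes did not overlap with each other. Erythroid cells were lower, at -1.22 ± 0.09 against endoderm (edgeR adjusted p = 2e-07), -0.65 ± 0.07 against mesoderm (adjusted p = 4.3e-06) and -0.19 ± 0.07 against endothelium (adjusted p = 0.032). The last of these calls was lost without tagged sample 1 (-0.093) or 3 (-0.20).

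Subunits of complex I split into rows that were low in erythroid cells and rows that were not. mt-Nd1, a membrane subunit next to the ubiquinone site, was at 3219, 2852 and 3119.6 CPM in endoderm, 2073, 2118 and 1816 in mesoderm, 1393, 1412 and 1302 in endothelium and 1308, 1407 and 1215 in erythroid cells, a difference of -1.01 ± 0.06 for erythroid cells against endoderm (edgeR adjusted p = 1.9e-08). mt-Nd3, another membrane subunit, was at 246, 210.5 and 218 in endoderm, 144, 156 and 159 in mesoderm, 159, 139 and 128 in endothelium and 217, 224 and 207 in erythroid cells. Erythroid values of mt-Nd3 overlapped with endoderm and lay above mesoderm and endothelium, with differences of 0.91 ± 0.07 and 0.91 ± 0.09 (edgeR adjusted p = 2.4e-07 and 2.4e-06). Its call above endoderm (0.16 ± 0.06, edgeR adjusted p = 0.042) was lost without tagged sample 2 (0.083) or 3 (0.17) and turned to -0.058 under library size alone.

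Other complex I rows lay between these. Against endoderm, erythroid cells differed by -0.75 in mt-Nd2, -1.004 in mt-Nd4, -0.85 in mt-Nd4l and -0.60 in mt-Nd6 (all called by edgeR), and by -0.13 in mt-Nd5, which was not. Without tagged sample 3 the call of mt-Nd6 was lost (-0.35). In mesoderm against endoderm mt-Nd6 was called at -0.51 ± 0.21 with overlapping values (edgeR adjusted p = 0.049), and the call was lost with tagged sample as a replicate block (-0.51) and without tagged sample 2 (-0.61) or 3 (-0.18). mt-Nd6 is the only member on the other strand of mitochondrial DNA and had the lowest counts of the 13, and its end overlaps mt-Nd5, from which it can be told apart only if counting used strand.

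The catalytic subunits of complex IV were lower in every other class than in endoderm. mt-Co1 was at 2683, 2077 and 2227 CPM in endoderm, 1816, 1716 and 1514 in mesoderm, 1647, 1447 and 1433 in endothelium and 1642, 1753 and 1677 in erythroid cells, so the last 3 classes overlapped. Its erythroid difference from endoderm of -0.25 ± 0.07 (edgeR adjusted p = 0.007) was lost without tagged sample 1 (-0.061). mt-Co2 was at 3933, 3714 and 4016 in endoderm, 2532, 2475 and 2128 in mesoderm, 1825, 1761 and 1600 in endothelium and 1814, 2091 and 1854 in erythroid cells, a difference of -0.80 ± 0.06 (edgeR adjusted p = 1.9e-07) between erythroid cells and endoderm.

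mt-Atp8 was the only mt- row with its highest mean in erythroid cells, and its tagged samples differed more than its classes. Tagged samples 1, 2 and 3 gave 71.3, 33.3 and 34.4 CPM in endoderm, 54.6, 38.1 and 35.6 in mesoderm, 54.0, 24.3 and 29.6 in endothelium and 61.8, 44.7 and 42.5 in erythroid cells. Tagged sample 1 was highest in every class. With tagged sample as a replicate block, differences from endoderm were called in endothelium (-0.48) and erythroid cells (0.40) that were not called without it (-0.43 and 0.30, edgeR adjusted p = 0.27 for both). mt-Atp6, with which it shares its transcript, was at 3738, 2878 and 3087 in endoderm and at 2308, 2379.9 and 2099 in erythroid cells, a difference of -0.30 ± 0.07 (edgeR adjusted p = 0.0027). The excess in tagged sample 1 was not particular to mt-Atp8. It was seen for mt-Atp6 also in mesoderm (3219, 2682 and 2345) and endothelium (2558, 1949 and 1907), and for mt-Nd5 in every class, as in endoderm (453, 342 and 398).

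**Figure D4:**
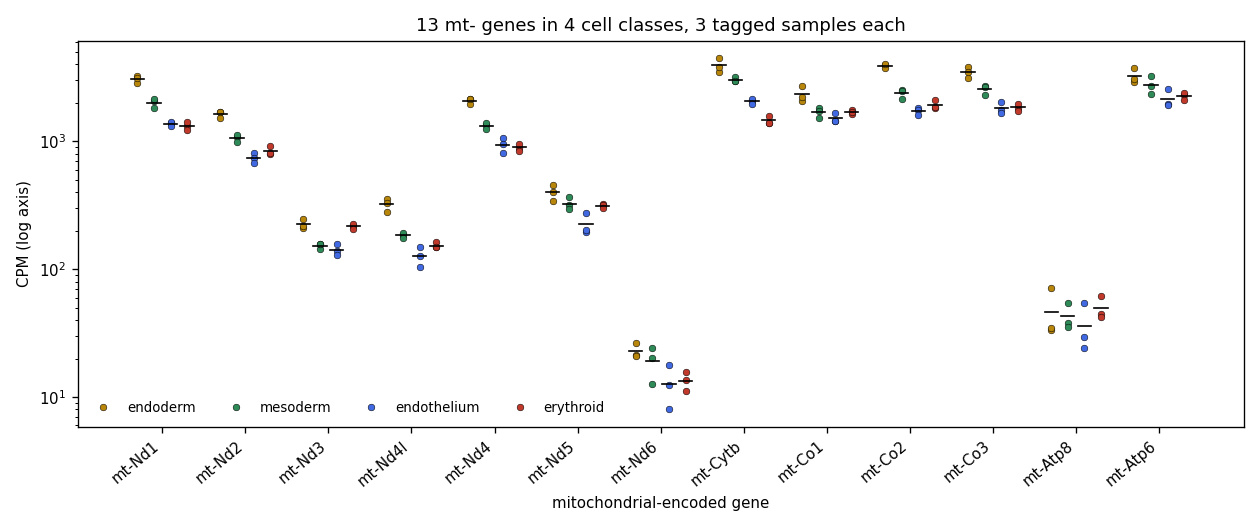
CPM (log axis) of the 13 mt- genes (x axis) in 4 cell classes; each point is 1 tagged sample and each line the mean of 3. Endoderm is highest for all but mt-Atp8, erythroid cells are lowest for mt-Cytb at 1381 to 1583, and in mt-Nd3 they stand at 207 to 224, among the endoderm values.

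Genes around the respiratory chain, in lists set by function, were compared in the same fits. Their counts stand beside the shares of all genes called in each fit. Of all genes, 33.2% were lower in mesoderm and 31.9% lower in endothelium than in endoderm. In erythroid cells 33.2% were higher than in mesoderm, 31.9% higher than in endothelium, and 36.1% higher and 41.8% lower than in endoderm. The tricarboxylic acid cycle, which supplies the electrons, had 14 of 16 genes tested lower in mesoderm and 15 of 16 lower in endothelium than in endoderm. In erythroid cells 15 of 16 were higher than in mesoderm and 14 of 16 higher than in endothelium. Against endoderm they split with 5 higher and 5 lower. Suclg1, a subunit of succinyl-CoA ligase, was lower, at -1.33 ± 0.10 in mesoderm and -1.27 ± 0.12 in endothelium, and Mdh2, mitochondrial malate dehydrogenase, was higher in erythroid cells than in mesoderm by 1.09 ± 0.09. Genes of complex II and cytochrome c had 7 of 10 lower in mesoderm and 7 of 10 lower in endothelium than in endoderm, led by Cyc1 (cytochrome c1, -1.08 ± 0.08 and -1.08 ± 0.09). In erythroid cells 8 of 10 were higher than in mesoderm.

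The mitochondrial ribosome translates the mt- transcripts and is encoded in the nucleus. Of its 77 genes tested, 62 were lower in mesoderm and 53 lower in endothelium than in endoderm, while in erythroid cells 72 were higher than in mesoderm and 70 higher than in endothelium. Against endoderm 45 were higher and 11 lower in erythroid cells, with a median of 0.30, in the same fit in which 10 of 13 mt- transcripts were lower. Factors for upkeep, transcription and stability of mitochondrial DNA and RNA had 14 of 22 higher and 2 lower in erythroid cells than in endoderm. Polg, the catalytic subunit of the mitochondrial DNA polymerase, was among the lower ones at -2.70 ± 0.10 (edgeR adjusted p = 2.9e-10), and Ssbp1, which binds single-stranded mitochondrial DNA, was higher by 0.74 ± 0.06. Against mesoderm Polg was lower, at -2.30 ± 0.10 and against endothelium at -1.995 ± 0.18.

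Assembly factors outside the Nduf names followed the subunits, with 22 of 32 lower in mesoderm and 15 of 32 lower in endothelium than in endoderm, and 20 of 31 higher in erythroid cells than in mesoderm. Cox17, a copper chaperone of complex IV, was lower in mesoderm than in endoderm, at -1.07 ± 0.08 and higher in erythroid cells than in mesoderm by 1.73 ± 0.07. Against endoderm, 13 of 32 were higher and 9 lower in erythroid cells, with a median of 0.06. Surf1 and Sco2, which also serve complex IV assembly, were among the lower ones, at -1.33 ± 0.09 and -1.60 ± 0.11. Of the nuclear regulators, Esrra, a receptor that drives respiratory genes, was lower than in endoderm, at -2.93 ± 0.18 in mesoderm, -1.96 ± 0.22 in endothelium and -2.09 ± 0.15 in erythroid cells. Its list as a whole split in mesoderm against endoderm, with 2 higher and 2 lower of 9. In erythroid cells 6 of 9 were higher than in endoderm and 2 lower, with a median of 0.44.

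Glycolysis genes were called in both directions against endoderm. In mesoderm 9 of 20 were higher and 6 lower, and in endothelium 7 and 6, beside backgrounds of 30.6% and 33.2% and of 28.6% and 31.9%, which the endothelium counts were near. In erythroid cells 13 of 20 were higher and 5 lower than in endoderm, 14 of 20 higher and 6 lower than in mesoderm, and 14 of 19 higher and 2 lower than in endothelium. The last 2 had medians of 0.57 and 0.59, in the direction of the nuclear respiratory rows. Slc2a3, a glucose transporter, was lower than in endoderm, at -3.39 ± 0.17, -4.70 ± 0.10 and -5.11 ± 0.07 in mesoderm, endothelium and erythroid cells. Pdk1, which restrains entry of pyruvate into the cycle, was higher in erythroid cells than in mesoderm by 2.82 ± 0.16. Of 7 hypoxia-inducible transcripts tested, 5 were higher and 1 lower in mesoderm than in endoderm, and Vegfa, an angiogenic ligand, rose there by 1.25 ± 0.11.

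Carriers and inhibitors tied to the ATP synthase moved by class as well. Of 8 tested, 7 were lower in mesoderm than in endoderm. Ucp2, an inner membrane carrier, was lower there, at -2.26 ± 0.15, and it was higher in erythroid cells than in endoderm by 1.04 ± 0.07 and than in mesoderm by 3.26 ± 0.13. Atpif1, the inhibitor of ATP synthase hydrolysis, was higher in erythroid cells than in endothelium by 1.64 ± 0.07. Bnip3, a mitophagy receptor, was lower, at -2.07 ± 0.18 in mesoderm and -2.88 ± 0.17 in endothelium than in endoderm, while Bnip3l, known for clearing mitochondria from maturing red cells, was higher in erythroid cells than in endoderm by 1.48 ± 0.08. Of the 7 mitophagy receptors, 4 were lower in mesoderm than in endoderm, and 3 were higher and 2 lower in erythroid cells, where 36.1% of all genes were higher and 41.8% lower.

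Within a class, cells varied little in the nuclear share and much in the mt- share. The median nuclear share of a cell's UMIs was 3.79%, 3.87% and 3.89% in endoderm of tagged samples 1, 2 and 3, 2.72%, 2.85% and 2.73% in mesoderm, 2.76%, 2.92% and 3.03% in endothelium and 3.65%, 3.65% and 3.63% in erythroid cells. The median mt- share was 2.49%, 2.33% and 2.44% in endoderm, 1.84%, 1.71% and 1.73% in mesoderm, 1.25%, 1.32% and 1.16% in endothelium and 1.23%, 1.37% and 1.201% in erythroid cells. The order of the classes was as in the sums. The coefficient of variation over cells was 6.61% to 15.8% for the nuclear share and 41.6% to 75.2% for the mt- share, over all classes and tagged samples.

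Cells with a larger mt- share did not have a larger nuclear share. Spearman's rho between the shares was negative in all 12 sets of cells, from -0.32 to -0.042, over 36 to 336 cells. The shares have the same denominator and come from the same library, so rho is only a description. Shallow cells differed from deeper ones in the mt- share, and not in the same direction in every class. Cells under 10000 UMIs had a median mt- share of 1.10% against 2.43% in deeper cells of endoderm (28 and 531 cells) and 0.328% against 1.78% in mesoderm (13 and 186 cells). It was the other way in erythroid cells, at 7.41% against 1.27% (7 and 622 cells), and in endothelium, at 1.48% against 1.203% (15 and 100 cells). Over all cells of a set, Spearman's rho between UMIs and the mt- share was -0.24 to -0.0076 in endoderm, -0.18 to -0.013 in mesoderm, -0.43 to 0.11 in endothelium and -0.11 to -0.066 in erythroid cells. Without cells under 10000 UMIs, the count of members called stayed within 1.5 times of its value in each class comparison.

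**Figure D5:**
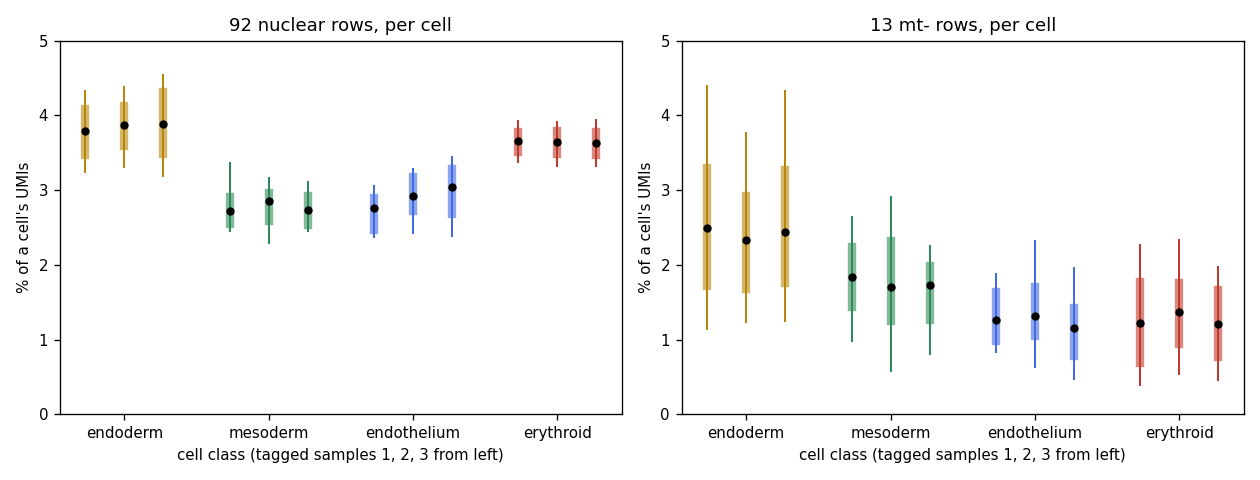
Share of a cell's UMIs (y axis, %) in the 92 nuclear rows (left) and 13 mt- rows (right), for 4 classes with tagged samples 1, 2 and 3 side by side; points are medians over cells, thick bars the middle quartiles and thin lines the 10th to 90th percentiles. Nuclear shares are narrow and near 3.6% in erythroid cells, and mt- shares are wide in every class.

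Erythroid cells build up globin as they mature, so they were set apart by the median globin share of their tagged sample. Cells below it had median shares of 4.39%, 6.098% and 6.18% of UMIs in tagged samples 1, 2 and 3, and cells above it 7.48%, 10.7% and 9.97%. These are ranges of a share and not cell types, and globin rows were left out of the fit. The nuclear sum with globin out of the total was 39518, 40416 and 40387 CPM in the cells above and 38297, 38824 and 38520 in the cells below. The mt- sum was 14424, 15864 and 14978 above and 12579, 14429 and 11930 below. Both sums were higher above than below in each tagged sample. For the nuclear sum this rests on the denominator, since with globin in the total it was 36365, 35812 and 36207 above and 36607, 36439 and 36224 below, lower above in each tagged sample. The mt- sum kept its direction there, at 13273, 14057 and 13428 above and 12024, 13543 and 11219 below. The median mt- share of single cells did so only in tagged samples 2 and 3. It was 1.21%, 1.40% and 1.36% above and 1.25%, 1.32% and 1.08% below in tagged samples 1, 2 and 3.

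Members were called higher in the high-globin cells, but the count rests on single tagged samples. With edgeR, 16 of 84 nuclear rows and 7 of 13 mt- rows were higher and 0 were lower, against 2% higher and 0.758% lower of all 8969 genes. The medians were 0.15 for nuclear rows, 0.29 for mt- rows and 0.00 for all genes. At an unadjusted p under 0.05, 53 nuclear and 10 mt- rows were higher and 0 lower, and DESeq2 called 22 and 7 higher and 0 lower. With tagged sample as a replicate block the count of 23 became 67. Without tagged sample 1 it was 47, without tagged sample 2 it was 6, and without tagged sample 3 it was 0, with 24 nuclear and 8 mt- rows still higher at an unadjusted p under 0.05.

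Ndufs3, a core subunit of complex I, showed the largest called difference here. It was at 153, 168 and 168 CPM in the low-globin cells and at 189, 218 and 205 in the high-globin cells, without overlap, a log2 difference of 0.48 ± 0.07 (edgeR adjusted p = 0.0061). mt-Co1 was at 1552, 1692 and 1506 in the low-globin cells and 1719, 1809 and 1846 in the high-globin cells, also without overlap, a difference of 0.33 ± 0.05 (edgeR adjusted p = 0.0048). mt-Co2 differed by 0.38 ± 0.07 (edgeR adjusted p = 0.014) with overlapping values. All 3 calls were lost without tagged sample 3 (0.50, 0.27 and 0.33 in the order named), and that of Ndufs3 also without tagged sample 2 (0.44). Among the surrounding genes Ucp2 and Atpif1 were higher in the high-globin cells, by 0.65 ± 0.07 and 0.37 ± 0.05 (edgeR adjusted p = 0.0007 and 0.0037).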

How the data were processed

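Single-cell RNA was measured in 3 tagged samples. The deposited matrices hold raw UMI counts made by the authors with Cell Ranger, version 6.1.2 per the file headers, on GRCm38 (mm10) per the submitters' processing notes. The assignment of cells to tagged samples is not described in the labels or file headers. Members and lists were chosen with earlier results of these data known.

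Cells are not replicates, so the counts of each class in each tagged sample were added up. Each pair of classes was fitted apart, 3 sums each, with edgeR 4.0.16 on R 4.3.3 (TMM, filterByExpr, glmQLFit, glmQLFTest, two-sided). The standard error is the absolute log2 difference over the square root of F. CPM values are UMIs per 1000000 gene UMIs and are not divided by length, so levels are not compared between genes. Scrublet in scanpy 1.11.5 called 74 cells, 45 of them in a class, which were kept and left out in an alternative. No barcode was shared between tagged samples (0).

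Named were the 13 mt- genes and, in each nuclear role group, the 3 rows with the highest mean CPM over all classes and tagged samples. Up to 3 called members per direction and comparison, with at least 20 CPM in the higher class, were also named. Tissue forms and the 2 genes with the smallest p per list completed the rule. A gene outside this rule is said to be chosen after its values were seen, or stands as the partner of a tissue form or copy. Some items that the rule or the lists name are not reported here.

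Both sums with a given number are cells of a shared tagged sample and are thereby paired. Deviations of same-numbered sums correlated across genes by 0.0069 to 0.16 between classes and by 0.13 to 0.23 between globin groups.

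Tested on simulated data with 200 genes changed by 1 log2 unit, the fit recovered 89% of them for mesoderm against endoderm (10642 genes run) and 73.5% for endothelium against mesoderm (9077 genes run), with 8 and 6 unchanged genes called. The simulated sums had a fixed dispersion of 0.02 and no pairing, and far fewer genes differed than were called in the class comparisons. Recovery of smaller differences was not tested. Alternatives covered scaling, DESeq2 1.42.0, the low-count filter, the replicate block, a fit of all classes, thinned sums, denominators, cell filters, doublets, class thresholds and each tagged sample left out. A minimum of 0.5% mt- UMIs per cell was added after seeing the data.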

Additional observations from a re-analysis of the deposited data

How the results depend on the processing

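The count of members called stayed within 1.5 times of its value under every alternative in 5 of the 7 comparisons: from 81 to 98 for mesoderm against endoderm, 74 to 91 for endothelium against endoderm, 50 to 73 for erythroid cells against endoderm, 79 to 93 against mesoderm and 70 to 89 against endothelium. The counts of 74 and 50 are of nuclear rows only, from fits without the mt- rows. A stable count can hide direction: for erythroid cells against endoderm, 37 higher and 24 lower became 13 and 46 under library size alone. For endothelium against mesoderm, leaving out 1 tagged sample gave 8 to 41 calls against 29. For the globin groups (23 calls) the same gave 0 to 47, a replicate block gave 67, no low-count filter 39, thinned sums 12, at most 20% mt- per cell 10, at least 0.5% mt- per cell 7 and library size alone 3; the cause was not tested. The replicate block moved no other count by over 1.5 times. Nuclear sums moved beyond their spread with globin rows out of the total (39338 CPM in erythroid cells), with mt- rows out of it (39644 in endoderm, 28380 in mesoderm and 36743 in erythroid cells), both by the smaller denominator, and with doubled class thresholds (27319 in mesoderm). The erythroid mt- sum moved to 14046 with globin rows out and to 14097 with at least 0.5% mt-.

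Of the named genes' values, 5372 kept their direction and their side of the threshold, 221 lost the call, 138 gained it and 9 turned. Of the lost calls 45 came with library size alone, 43 without tagged sample 3 and 33 without tagged sample 2. With library size alone, erythroid cells against endoderm turned for mt-Nd3 (-0.058), Uqcr11 (-0.031), Cox4i1 (-0.034) and Ndufa9 (-0.028), erythroid cells against mesoderm for mt-Nd5 (-0.059) and Ndufv3 (-0.063), and erythroid cells against endothelium for mt-Nd1 (-0.068) and mt-Nd4 (-0.072). With thinned sums, Ndufaf1 in erythroid cells against mesoderm turned to -0.0028. Endothelium had the fewest cells (36 to 42 per tagged sample), and with all sums thinned to the smallest, endothelium against mesoderm gave 33 calls.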
